A study of Mus musculus with 21 samples.

Results

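Abundant secreted proteins of mouse myeloid cells are described here at the level of their transcripts: Lyz1 and Lyz2, which encode lysozymes, and Chil3, which encodes the chitinase-like protein Ym1. The 3 genes were read from a table of 23420 genes, in which Lyz1 and Lyz2 stand under these symbols and Chil3 under its older symbol Chi3l3. They were chosen with earlier results of these data known. Lyz2 appears to have been chosen by its count, which ranked first among all genes in each library, and that rank is a description with no test. Which values led to Lyz1 and Chil3 is not recorded, and the p-values of all 3 genes are those of a fit across all genes.

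RNA was measured by bulk RNA-Seq in 21 libraries of inflammatory monocytes (IMs), sorted as CD45+CD11b+Ly6G-Ly6C-high cells with SiglecF+ cells left out, from wild-type adult mice. The study as a whole used both sexes, and the sex behind each library is not given here. BM IMs came from the bone marrow of tumor-free FVB mice (n = 3) or tumor-free DBA2 mice (n = 3). Tumor-infiltrating IMs (TIMs) came from FVB mice given 500000 KAL-LN2-E1 (LN2E1) lung squamous carcinoma cells into the lung, as primary tumor TIMs (n = 5) and lymph node metastasis TIMs (n = 5), or from the lungs of DBA2 mice given 300000 LN4K1 cells into a vein (n = 5). Each tumor model is a single metastatic line in a single strain, so strain, line, route and tissue cannot be told apart between the models, and the healthy control of every TIM group is marrow, not lung or lymph node. The study's methods call the replicates technical, and p-values may then measure only technical spread.

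Lysozymes cut the peptidoglycan of bacterial cell walls. In the mouse, Lyz2 encodes lysozyme M, made in large amounts by monocytes, macrophages and neutrophils, and its locus drives the Cre recombinase most used to delete genes in myeloid cells. Lyz1 encodes lysozyme P, best known from the Paneth cells of the small intestine. Chil3 belongs to the chitinase family of glycosyl hydrolases but its protein does not cut chitin. It is known as a marker of macrophages treated with interleukin-4, is abundant in alveolar macrophages, and is also expressed in marrow monocytes and neutrophil precursors.

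Lyz1 and Lyz2 are neighboring copies on the minus strand of chromosome 10 (GRCm38, GENCODE), Lyz1 at chr10:117287797-117292868 and Lyz2 at chr10:117277331-117282321, with 5475 bases between them. Their coding sequences, of 444 bases each without the stop codon, aligned with no gap and differed at 22 bases, an identity of 95.0%. The first 240 bases of both, which hold 17 of these differences, are printed because the counts of the 2 genes can be told apart only by reads that cover such differences, which are in capitals:

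Lyz1: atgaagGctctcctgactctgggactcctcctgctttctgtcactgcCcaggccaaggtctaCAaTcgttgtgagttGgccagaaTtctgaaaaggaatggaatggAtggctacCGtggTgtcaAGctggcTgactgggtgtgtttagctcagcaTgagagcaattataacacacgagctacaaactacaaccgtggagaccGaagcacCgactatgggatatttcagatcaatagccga

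Lyz2: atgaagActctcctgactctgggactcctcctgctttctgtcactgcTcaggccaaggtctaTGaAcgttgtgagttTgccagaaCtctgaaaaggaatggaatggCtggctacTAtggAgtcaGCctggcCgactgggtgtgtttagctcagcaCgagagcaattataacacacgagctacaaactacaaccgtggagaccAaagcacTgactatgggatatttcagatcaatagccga

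The capitals were unevenly spaced and left stretches in which a read fits both genes. The longest run shared by the transcripts was 118 bases. Of all 50-base windows of the Lyz1 transcript, 16.1% occurred unaltered in Lyz2, and 6.22% of the 75-base and 2.06% of the 100-base windows did. How the counting treated reads that match both genes is not given in the sources used here, so every value of Lyz1 carries an uncertainty that the replicate error does not show. Chil3 (chr3:106147554-106167564, minus strand) has a like neighbor in Chil4, at chr3:106201490-106219507 on the same strand and 33925 bases away, which encodes Ym2. Their coding sequences were 95.4% identical, and 18.5% of the 50-base windows of the Chil3 transcript occurred in Chil4.

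The 250 bases before the RefSeq start sites (GRCm38.p6) are printed because Lyz1 and Lyz2 moved alike across the libraries and Chil3 did not. Short motifs were searched, chosen with the sequences in view and put in capitals: GGAAGT, a core bound by ETS factors such as PU.1, and TTNNGNAA, a core of C/EBP sites, both on either strand, and TATAAA on the gene's strand.

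Lyz1, chr10:117292869-117293118: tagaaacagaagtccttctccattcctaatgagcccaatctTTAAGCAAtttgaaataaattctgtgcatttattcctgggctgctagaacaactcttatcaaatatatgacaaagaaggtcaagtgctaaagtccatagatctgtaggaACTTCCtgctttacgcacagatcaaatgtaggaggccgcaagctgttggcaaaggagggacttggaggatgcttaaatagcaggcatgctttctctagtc

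Lyz2, chr10:117282273-117282522: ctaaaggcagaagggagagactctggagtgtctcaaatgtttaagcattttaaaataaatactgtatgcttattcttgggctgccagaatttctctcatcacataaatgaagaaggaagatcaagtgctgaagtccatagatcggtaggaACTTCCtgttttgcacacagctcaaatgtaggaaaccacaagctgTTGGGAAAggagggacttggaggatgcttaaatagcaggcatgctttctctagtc

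Chil3, chr3:106167565-106167814: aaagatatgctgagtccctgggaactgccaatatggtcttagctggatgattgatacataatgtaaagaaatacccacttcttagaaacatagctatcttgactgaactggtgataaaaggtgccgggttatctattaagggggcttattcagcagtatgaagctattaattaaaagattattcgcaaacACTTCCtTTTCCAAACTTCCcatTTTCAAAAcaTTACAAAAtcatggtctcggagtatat

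The 2 lysozyme windows were 80.6% identical where they aligned, and in both an ETS core, read on the other strand, began 100 bases before the start. A C/EBP core began 209 bases before the start of Lyz1 and 55 bases before that of Lyz2. The Chil3 window held ETS cores at 60 and 46 bases and C/EBP cores at 53, 37 and 27 bases before the start, where the last base of 1 motif can belong to the next. TATAAA was in none of the 3 windows. Of 32851 windows of the same length, 19.7% held the ETS core, 36.8% the C/EBP core and 7.59% TATAAA, so such matches are common. GENCODE places the start of Lyz2 further upstream, inside this window.

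Lyz2 held 2.77% to 10.3% of all counts of a library and Lyz1 0.0306% to 0.135%. Chil3 held 0.0838% to 0.876%. Ranked among all genes, Lyz1 stood between place 83 and 581 and Chil3 between place 2 and 135. Together the 3 genes took a median of 6.39% of counts in FVB BM IMs, 3.91% in primary tumor TIMs, 3.24% in lymph node TIMs, 5.12% in DBA2 BM IMs and 7.06% in LN4K1 lung TIMs. Levels below are CPM, counts scaled to a common library size with factors from the trimmed mean of M-values (TMM). Per kilobase of exon, the mean level of Lyz2 in FVB BM IMs was 40903 CPM per kb ± 6597 (SD, n = 3), that of Chil3 was 1989 ± 207 and that of Lyz1 was 532 ± 87.0.

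Lyz2 was at 62852, 53097 and 45536 CPM in the FVB BM IM libraries, and at 33927, 30945, 37911, 30109 and 40954 CPM in primary tumor TIMs. It was at 43959, 30812, 28978, 30556 and 37106 CPM in lymph node TIMs. All 10 LN2E1 TIM libraries lay below all 3 FVB BM IM libraries. In the other model the order was turned around: DBA2 BM IMs were at 47035, 42282 and 41648 CPM and LN4K1 lung TIMs at 69699, 58648, 115166, 60484 and 75434 CPM. Replicate 3 of the LN4K1 lung TIMs was the highest of the 21 libraries, and the other 4 also lay above every DBA2 BM IM library.

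Lyz1 followed Lyz2 at a far lower level. It was at 768, 696 and 552 CPM in FVB BM IMs, at 348, 333, 420, 305 and 407 CPM in primary tumor TIMs, and at 521, 431, 314, 340 and 413 CPM in lymph node TIMs. It was at 594, 533 and 521 CPM in DBA2 BM IMs and at 893, 761, 1505, 733 and 814 CPM in LN4K1 lung TIMs. As for Lyz2, each LN2E1 TIM group lay below its marrow control and the LN4K1 lung TIMs lay above theirs, without overlap.

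Chil3 had another pattern and a wider spread, with 12.9 times between its lowest and highest library against 3.97 for Lyz2 and 4.93 for Lyz1. It was at 3571, 3268 and 2897 CPM in FVB BM IMs and at 5765, 3820, 9330, 5837 and 7953 CPM in primary tumor TIMs, all 5 of which lay above the marrow. Lymph node TIMs were at 8711, 3464, 3309, 2255 and 4705 CPM, with replicate 1 far above the rest and the group overlapping the marrow. DBA2 BM IMs were at 2589, 939 and 725 CPM and LN4K1 lung TIMs at 4060, 2701, 5487, 2317 and 5139 CPM. Replicate 1 of the DBA2 BM IMs lay above the lowest LN4K1 lung TIM library.

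**Figure D1:**
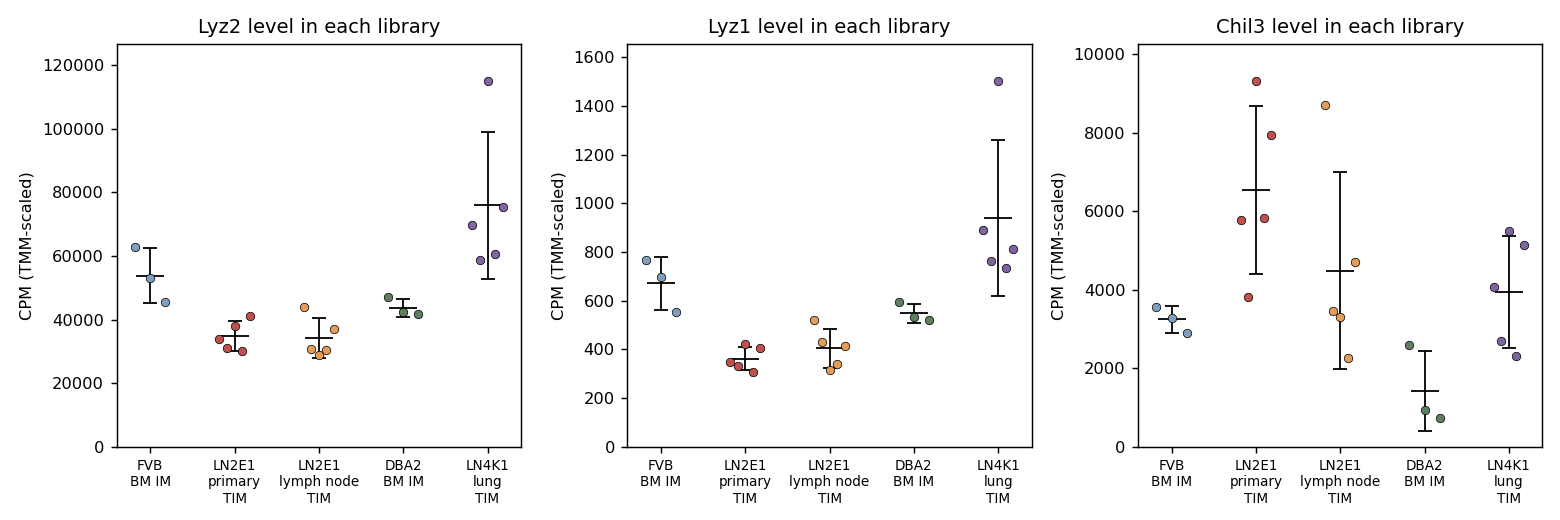
CPM (TMM-scaled, linear axis from 0) of Lyz2, Lyz1 and Chil3 in each of the 21 libraries by group, with the group mean and SD as bars. Both lysozymes lie below the marrow in LN2E1 TIMs and above it in LN4K1 lung TIMs, while Chil3 has its highest group mean, 6541 CPM, in primary tumor TIMs.

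In order of mean level, Lyz2 ran from LN4K1 lung TIMs (75886 CPM ± 22999, SD, n = 5) to FVB BM IMs (53828 ± 8681, n = 3), DBA2 BM IMs (43655 ± 2945, n = 3), primary tumor TIMs (34769 ± 4615, n = 5) and lymph node TIMs (34282 ± 6238, n = 5). Of the neighbors in this order, the DBA2 BM IMs and the primary tumor TIMs did not overlap, and the others did. Lyz1 had the same order except that lymph node TIMs (404 ± 81.6) stood above primary tumor TIMs (362 ± 49.2). Chil3 ran from primary tumor TIMs (6541 ± 2138) to lymph node TIMs (4489 ± 2515), LN4K1 lung TIMs (3941 ± 1416), FVB BM IMs (3245 ± 338) and DBA2 BM IMs (1417 ± 1020), and the last pair was the only neighboring pair without overlap.

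To evaluate how TIMs of each tumor differed from healthy marrow IMs of the same strain, edgeR's quasi-likelihood test was run for each comparison on the libraries of its 2 groups, with p-values adjusted by Benjamini-Hochberg over all genes tested. A gene was called changed at an adjusted p under 0.05. In primary tumor TIMs, Lyz1 fell by 0.91 on the log2 scale (SE 0.13, adjusted p = 0.000284, 1.88-fold) and Lyz2 fell by 0.65 (SE 0.13, adjusted p = 0.00227, 1.57-fold) against FVB BM IMs. Chil3 rose by 0.99 on the log2 scale (SE 0.26, adjusted p = 0.00755, 1.99-fold). The background of this comparison was high, with 33.3% of 14569 genes called higher and 28.6% called lower, so that a call alone sets no gene apart. Leaving out any 1 library kept all 3 calls, with a log2 difference of Chil3 from 0.82 to 1.14. With all 5 groups in 1 edgeR fit, the Chil3 difference was 1.01 with an adjusted p of 0.0642.

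In lymph node TIMs against the same FVB BM IMs, Lyz1 fell by 0.73 on the log2 scale (SE 0.17, adjusted p = 0.00839) and Lyz2 fell by 0.65 (SE 0.16, adjusted p = 0.0115) in edgeR's test. Chil3 differed by 0.47 (SE 0.37, adjusted p = 0.363), which was within the spread between replicates. Of all genes, 20.2% were called higher and 17.2% lower. Without FVB BM IM replicate 1, the Lyz2 difference was -0.53 with an adjusted p of 0.0611. Without lymph node replicate 1, the Chil3 difference was 0.08. The 2 comparisons share their 3 control libraries and are not independent.

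In LN4K1 lung TIMs against DBA2 BM IMs, Lyz2 rose by 0.72 on the log2 scale (SE 0.22, adjusted p = 0.0412, 1.65-fold) in edgeR's test, where 13.9% of genes were called higher and 11.0% lower. Lyz1 differed by a like amount, 0.70 (SE 0.24), with an adjusted p of 0.0582, and Chil3 by 1.40 (SE 0.46), with an adjusted p of 0.0516. All 3 adjusted p-values lay near the threshold, and single libraries moved them across it. The Lyz2 call was lost without DBA2 BM IM replicate 1 (0.78, adjusted p = 0.0921), replicate 2 (0.70, 0.132) or replicate 3 (0.69, 0.131), and without LN4K1 lung TIM replicate 1 (0.75, 0.0625) or replicate 5 (0.73, 0.0752). Without LN4K1 lung TIM replicate 3, the Lyz1 difference was smaller but called (0.47, adjusted p = 0.00378). Without DBA2 BM IM replicate 1, the Chil3 difference was 2.16 with an adjusted p of 0.00593, and without LN4K1 lung TIM replicate 4 it was 1.54 with an adjusted p of 0.0487.

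The lysozyme differences had opposite signs in the 2 models, and the difference between them was tested with an interaction term. The log2 difference of Lyz1 in primary tumor TIMs minus that in LN4K1 lung TIMs, each against its own marrow, was -1.59 (SE 0.28, adjusted p = 0.00139), and that of Lyz2 was -1.35 (SE 0.26, adjusted p = 0.00238) in edgeR's test. By this test 13.2% of genes were called higher and 13.3% lower. For both genes the call held in each of 24 other settings, with values from -1.70 to -1.35 for Lyz1 and from -1.44 to -1.15 for Lyz2. These settings include the sum of both lysozymes, which is nearly all Lyz2 and stands under both names. The range of Lyz1 thus holds a value that is not its own. For Chil3 the interaction was -0.38 (SE 0.54, adjusted p = 0.661), an error so wide that it shows neither a like nor an unlike response in the 2 models. Its value lay between -1.15, without DBA2 BM IM replicate 1, and -0.06.

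**Figure D2:**
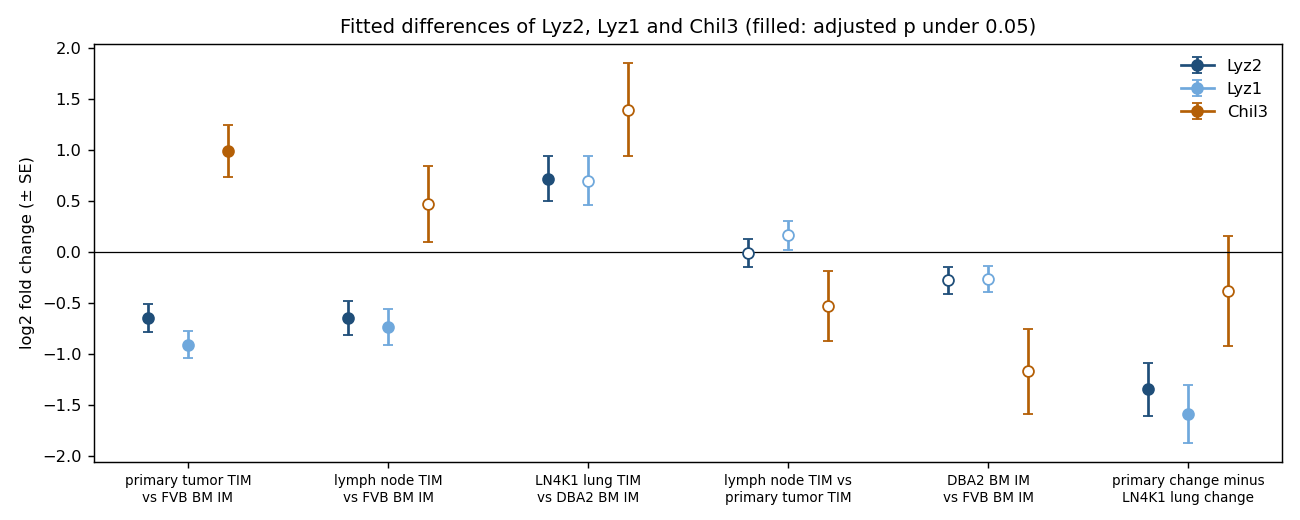
Fitted log2 fold changes (± SE) of Lyz2, Lyz1 and Chil3 in the 6 comparisons, filled where the adjusted p was under 0.05. The lysozymes lie below 0 in both LN2E1 comparisons with marrow and above 0 in LN4K1 lung TIMs, and Chil3 lies above 0 in all 3, passing the test in primary tumor TIMs.

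Between the 2 sites of the LN2E1 model, edgeR's test called none of the 3 genes at an adjusted or an unadjusted p under 0.05, and DESeq2 called 0. Lymph node minus primary tumor TIMs was 0.17 for Lyz1 (SE 0.14, adjusted p = 0.518), -0.01 for Lyz2 (SE 0.13, adjusted p = 0.974) and -0.53 for Chil3 (SE 0.34, adjusted p = 0.364). In this comparison 6.15% of genes were called higher and 5.55% lower. Without lymph node replicate 1, the Chil3 difference was -0.92 with an adjusted p of 0.0369. That library held 107 CPM of neutrophil precursor markers, against 18.5 to 25.3 CPM in the other 4, and the part of those cells in its Chil3 level was not tested. It also had fewer genes with 10 or more counts, 11047 against 12433 to 12828 in the other 4, and the part of this was not tested.

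Between the strains without tumor, edgeR called none of the 3 genes, with 1 (Chil3) at an unadjusted p under 0.05, and DESeq2 called 0. DBA2 minus FVB BM IMs was -1.17 for Chil3 (SE 0.42, adjusted p = 0.079), -0.26 for Lyz1 (SE 0.12, adjusted p = 0.159) and -0.28 for Lyz2 (SE 0.13, adjusted p = 0.173), against 11.5% of genes called higher and 9.57% called lower. The Chil3 difference was larger and called without DBA2 BM IM replicate 1, at -1.94 with an adjusted p of 0.000672. In that library the summed markers of macrophages (2025 CPM) and of mature neutrophils (2508 CPM) were also the highest of the 3, the other libraries being at 846 and 977 CPM and at 1876 and 1993 CPM. So were the neutrophil precursor markers, at 2778 CPM against 2457 and 2646 CPM. The alveolar macrophage markers (117 against 86.4 and 65.2 CPM) and eosinophil markers (1105 against 687 and 431 CPM) were too. Their part in the Chil3 level was not tested. Without FVB BM IM replicate 3, both lysozyme differences were called, at -0.37 for each (adjusted p = 0.0121 for Lyz1 and 0.0249 for Lyz2).

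The study's threshold for differentially expressed genes (DEGs), an adjusted p under 0.0001 with an absolute log2 fold change above 1, was met by none of the 3 genes in any comparison with edgeR. At an unadjusted p under 0.05, 3 passed in primary tumor TIMs, 2 in lymph node TIMs and 3 in LN4K1 lung TIMs. The share of all genes passing at that level was not computed, so these counts set no gene apart. Even after adjustment, 33.3%, 20.2% and 13.9% of all genes were called higher and 28.6%, 17.2% and 11.0% lower. DEGs were 12.9% of genes in primary tumor TIMs, 5.71% in lymph node TIMs, 2.97% in LN4K1 lung TIMs, 0.0297% between the LN2E1 sites and 0.403% between the marrows. With DESeq2, Chil3 met the threshold in primary tumor TIMs (1.05, or 1.03 with shrunken fold changes, adjusted p = 4.23e-05). With unshrunken DESeq2 fold changes Lyz1 and Lyz2 met it in the interaction. Shrunken fold changes, to which the study applied its threshold, were not computed for the interaction. The shares of all genes that met the threshold with DESeq2 were not computed either, so these DESeq2 results set no gene apart.

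The share of Lyz1 in the counts of both lysozymes does not depend on their summed level, and was compared over libraries with an exact two-sided permutation test, adjusted over 6 comparisons. Lyz1 took 0.983% to 1.38% of the pair's counts over the 21 libraries, with a mean of 1.17%. The share was 1.21%, 1.29% and 1.20% in FVB BM IMs and 1.01%, 1.06%, 1.096%, 1.003% and 0.983% in primary tumor TIMs, with no overlap. This difference, -0.201 percentage points, had the smallest p that 5 against 3 libraries allow in the exact test (p = 0.0179), and an adjusted p of 0.0536. Lymph node TIMs were higher than primary tumor TIMs by 0.133 percentage points (exact permutation p = 0.0159, adjusted p = 0.0536). None of the 6 comparisons passed the threshold after adjustment. Without lymph node replicate 3 the second difference did, at 0.156 (adjusted p = 0.0476 in the exact permutation test).

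DBA2 libraries had a Lyz1 share 0.0991 percentage points above FVB libraries (exact permutation p = 0.0452, adjusted p = 0.0904). The labels were permuted over marrow and TIM libraries together, so this p-value does not measure strain alone. In TIMs, strain cannot be told apart from line, route and tissue. The difference was 0.0092 percentage points in BM IMs alone (exact p = 1.0, where 3 against 3 cannot go below 0.1) and 0.122 in TIMs alone (exact p = 0.0646). It passed after adjustment without FVB BM IM replicate 2 (0.113, adjusted p = 0.0433), LN4K1 lung TIM replicate 5 (0.122, adjusted p = 0.0357) or lymph node replicate 2 (0.120, adjusted p = 0.0357) in the exact permutation test. The 3 DBA2 BM IM libraries were the closest to each other, at 1.24% to 1.25%. The share of Chil4 in the counts of Chil3 and Chil4, which was added after the values were seen and was not tested, was also narrow, at 1.34% to 1.73% with a mean of 1.53%. Over the same libraries Chil3 itself varied 12.9-fold. Whether the counts of the smaller gene of each pair are its own transcripts or reads of its neighbor was not tested.

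**Figure D3:**
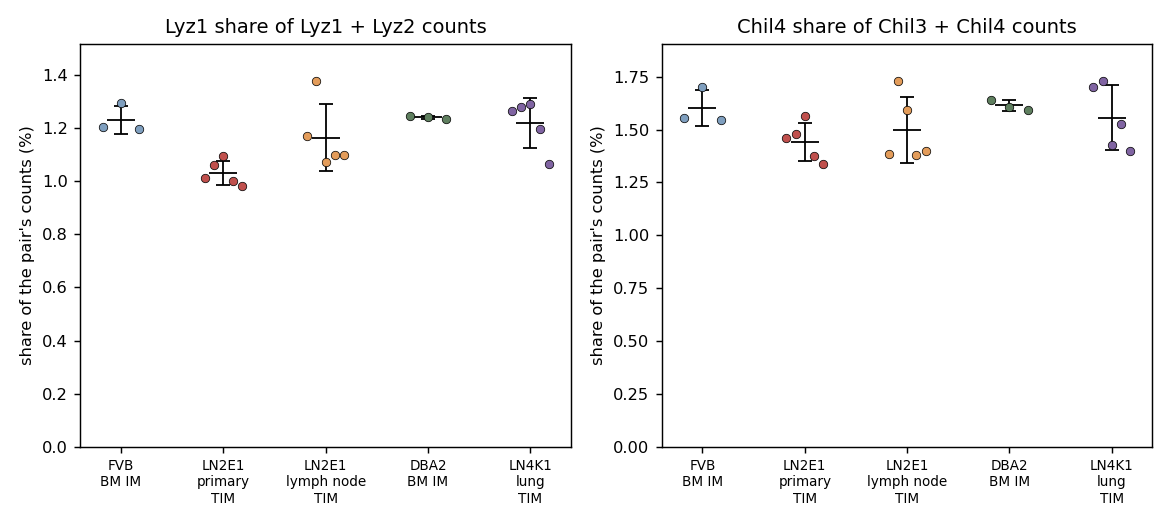
Share (%) of Lyz1 in the counts of Lyz1 and Lyz2, and of Chil4 in those of Chil3 and Chil4, in each library by group, with mean and SD as bars and axes from 0. Both shares stay between 0.983% and 1.73% in all libraries, and the Lyz1 share is lowest in primary tumor TIMs.

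Among 8016 genes whose mean log2 CPM exceeded 3, those closest to each gene across the 21 libraries were found by the root mean square difference of log2 CPM values centered on each gene's mean. As a description, Lyz1 and Lyz2 differed by 0.137 on this scale, where Lyz1 itself had an SD of 0.58. Both were closest to Mgst1, a microsomal glutathione transferase, at 0.186 from Lyz1 and 0.147 from Lyz2, and to Clec4a2, a C-type lectin receptor of myeloid cells, at 0.194 and 0.176. The third was Zmat5 for Lyz1 (0.210) and Tpgs1 for Lyz2 (0.180). Mgst1 stood at a mean of 503 CPM in FVB BM IMs, 332 in primary tumor TIMs, 348 in lymph node TIMs, 404 in DBA2 BM IMs and 730 in LN4K1 lung TIMs, the same order of groups as Lyz1. The closest gene to Chil3 was its copy Chil4 (0.119), and after it came Fxyd5 (0.547) and Manf (0.550) at much larger distances. Chil3 was 1.11 from Lyz1 and 1.02 from Lyz2. All these points share libraries and depth, and reads may be shared between copies.

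Of the other members of the lysozyme family, 7 were in the table and none had enough counts to be tested. Lyzl6 had at most 5 counts in a library, Lalba, which encodes the milk protein alpha-lactalbumin, at most 2 and Lyg1 at most 1. Lyzl1, Lyzl4, Lyg2 and Spaca3 were at 0 counts in all 21 libraries, which allows up to 0.0371 CPM at the lowest depth. Nearly all lysozyme counts of these libraries were thus those of Lyz2.

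Of the chitinase family beside Chil3, 7 genes could be tested in primary tumor TIMs, where 2 were called higher (Chil4 and Chia1) and 2 lower (Chit1 and Ovgp1), near the 33.3% and 28.6% of all genes. Chil4 rose by 0.85 on the log2 scale (SE 0.27, adjusted p = 0.0203). Chia1, the acidic chitinase of lung and stomach, had 14 to 161 counts in primary tumor TIMs and 0 in every BM IM library of either strain (adjusted p = 0.00116 in edgeR's test). Chit1, the chitinase of macrophages, fell in all 3 TIM groups, from a marrow level in FVB mice of 2.86 CPM ± 2.22 (SD, n = 3) to 0.162 ± 0.139 in primary tumor TIMs and 0.0096 ± 0.016 in lymph node TIMs. It fell from 1.49 ± 0.378 CPM in DBA2 BM IMs to 0.0839 ± 0.125 in LN4K1 lung TIMs (adjusted p = 0.00184, 0.00161 and 0.0385 in edgeR's test). Chil1, which encodes the chitinase-like protein YKL-40, was the next most abundant at 326 CPM ± 43.9 in FVB BM IMs and 374 ± 46.1 in primary tumor TIMs, and did not pass the test in any comparison with marrow.

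In lymph node TIMs 1 of 6 tested family members was called (Chit1), against 20.2% of all genes called higher and 17.2% lower. In LN4K1 lung TIMs, where 13.9% of all genes were called higher and 11.0% lower, 3 of 6 were: Ctbs, a lysosomal enzyme that trims N-glycan cores, rose by 0.70 (SE 0.14, adjusted p = 0.00506), and Chit1 and Ovgp1 fell. Ovgp1, known as an oviduct glycoprotein, fell by 0.95 in primary tumor TIMs (SE 0.27, adjusted p = 0.0119) and by 1.14 in LN4K1 lung TIMs (SE 0.26, adjusted p = 0.0102). Chid1 differed by 0.05 at most from marrow. The family's median log2 difference, without Chil3, was 0.05 in primary tumor TIMs, 0.07 in lymph node TIMs and 0.08 in LN4K1 lung TIMs, beside 0.08, -0.04 and 0.03 over all genes tested.

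**Figure D4:**
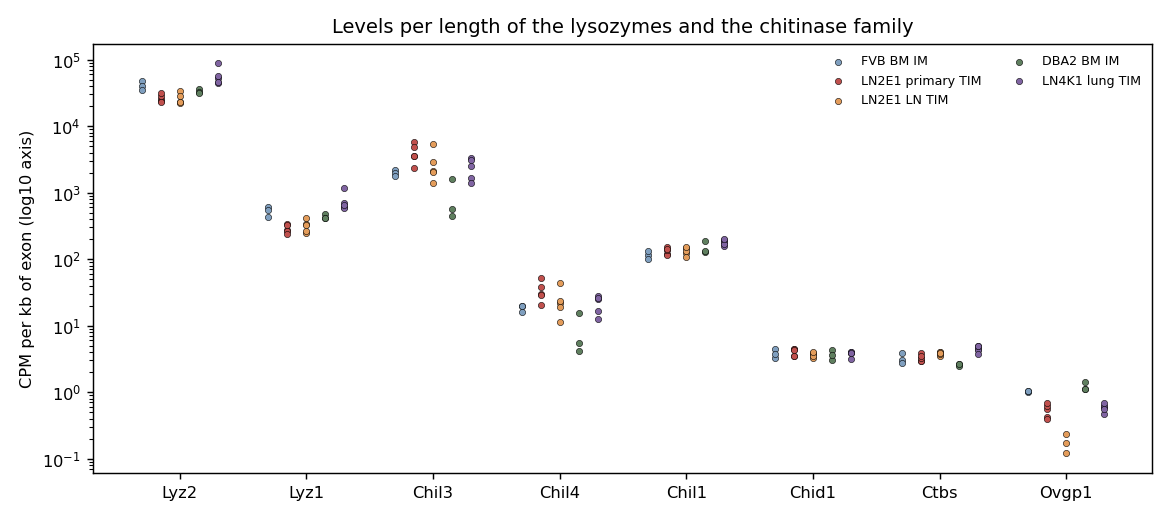
CPM per kilobase of exon (log10 axis) of Lyz2, Lyz1 and the more abundant chitinase family genes in each library, colored by group, with values of 0 left out. Lyz2 is the highest at every group and Chil3 the highest of the chitinase family, and Chil1, Chid1 and Ctbs vary little between groups beside Chil3.

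Genes that act on the cell wall fragments released by lysozyme did not move as 1 group. Of the peptidoglycan recognition list, 6 of 9 tested genes rose and 1 fell in primary tumor TIMs, 5 of 8 rose in lymph node TIMs, and 4 of 8 rose and 1 fell in LN4K1 lung TIMs. Of all genes, 33.3%, 20.2% and 13.9% were called higher and 28.6%, 17.2% and 11.0% lower. Those that rose in primary tumor TIMs were the sensors Nod1 and Nod2, their kinase Ripk2, the carriers Slc15a3 and Slc15a4, and the inflammasome gene Nlrp3. Pglyrp1, which encodes a secreted protein that binds peptidoglycan, fell by 0.51 in primary tumor TIMs (SE 0.16, adjusted p = 0.0184) and by 0.95 in LN4K1 lung TIMs (SE 0.14, adjusted p = 0.00108), and rose by 0.72 in lymph node TIMs (SE 0.14, adjusted p = 0.00312). Pglyrp2 and Pglyrp4 were below 1 CPM on average in each group and were not called where tested, and Pglyrp3 was at 0. The list's median log2 difference was 0.70, 1.08 and 0.52, beside the medians over all genes given above. Nod1, an intracellular sensor of peptidoglycan, rose in primary tumor TIMs to 153 CPM ± 17.6 from 17.5 ± 6.22 in FVB BM IMs (log2 3.10, SE 0.24, adjusted p = 4.82e-06). It rose by 3.35 in lymph node TIMs (adjusted p = 7.32e-06) and by 1.31 in LN4K1 lung TIMs (adjusted p = 0.00534). Nod2, which senses muramyl dipeptide, rose by 2.47, 2.14 and 1.73 in the 3 groups. Slc15a3, a lysosomal carrier that moves such fragments to the cytosol, rose by 1.65, 1.96 and 1.27.

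Of the alternative activation list, genes known to rise with Chil3 in macrophages treated with interleukin-4, 7 of 10 rose and 1 fell in primary tumor TIMs, 4 of 9 rose in lymph node TIMs, and 6 of 10 rose and 1 fell in LN4K1 lung TIMs. Of all genes, 33.3%, 20.2% and 13.9% were called higher and 28.6%, 17.2% and 11.0% lower. The medians were 3.31, 0.76 and 3.35. The gene that fell was Mgl2, by 0.51 in primary tumor TIMs and by 2.44 in LN4K1 lung TIMs (adjusted p = 0.0182 and 0.00135 in edgeR's test). Mrc1 and Clec10a were called in no comparison with marrow. Arg1, which encodes arginase, rose in primary tumor TIMs to 18.2 CPM ± 12.7 from 0.326 ± 0.169 in FVB BM IMs, in lymph node TIMs to 34.9 ± 16.4, and from 0.174 ± 0.218 in DBA2 BM IMs to 33.8 ± 8.65 in LN4K1 lung TIMs (adjusted p = 0.000116, 2.64e-05 and 0.000204 in edgeR's test). Retnla, which encodes Fizz1, lay near 0 in both marrows and reached 3.77 to 38.1 CPM in primary tumor TIMs and 0.905 to 11.9 CPM in LN4K1 lung TIMs (adjusted p = 0.000495 and 0.00301). In lymph node TIMs it was at 0.520 CPM ± 1.16, too low to be tested. Pdcd1lg2, which encodes the checkpoint ligand PD-L2, was near 0 in marrow and at 8.52 CPM ± 1.504 in primary tumor TIMs (adjusted p = 1.18e-06). Chil3 thus stood above Arg1, Retnla and Pdcd1lg2 in level, its lowest marrow library being at 725 CPM. Other genes of the list were more abundant than those. Stat6 was at a mean of 321 CPM in FVB BM IMs and Il4ra at 1296 CPM in primary tumor TIMs.

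Of the macrophage lysosomal list, 6 of 10 genes rose in primary tumor TIMs, 6 rose and 1 fell in lymph node TIMs, and 5 rose in LN4K1 lung TIMs, with medians of 0.65, 0.72 and 0.52, beside the same shares of all genes. The cathepsin gene Ctsl rose by 2.63, 2.31 and 1.11 on the log2 scale, Ctss by 1.19, 1.8 and 1.62, and Lamp2, a protein of the lysosomal membrane, by 1.11, 1.47 and 0.70. In LN2E1 TIMs these genes rose while the lysozymes fell. Of the myeloid transcription factors, 4 of 11 rose and 5 fell in primary tumor TIMs, 4 rose and 4 fell in lymph node TIMs, and 1 rose and 2 fell in LN4K1 lung TIMs. Of all genes, 33.3%, 20.2% and 13.9% were called higher and 28.6%, 17.2% and 11.0% lower, so the share that rose in primary tumor TIMs was near the background. The medians were 0.20, -0.51 and 0.12. Myb, a factor of progenitor cells, fell in primary tumor TIMs to 0.781 CPM ± 0.390 from 20.5 ± 0.101 in FVB BM IMs (adjusted p = 2.74e-05) and from 25.2 ± 6.07 in DBA2 BM IMs to 1.34 ± 0.420 in LN4K1 lung TIMs (adjusted p = 8.56e-06). Cebpb, the factor C/EBP-beta, fell by 2.50 in primary tumor TIMs (SE 0.45, adjusted p = 0.00117) and by 1.94 in lymph node TIMs (SE 0.55, adjusted p = 0.0189), and differed by 0.42 in LN4K1 lung TIMs (SE 0.62, adjusted p = 0.673). Its FVB BM IM libraries ran from 27.1 to 136 CPM and overlapped lymph node TIMs, at 9.15 to 34.1 CPM. The 4 that rose in both LN2E1 groups were Spi1, which encodes PU.1, Irf8, Stat6 and Runx1. Spi1 rose by 0.42 in primary tumor TIMs and 0.49 in lymph node TIMs (adjusted p = 0.00249 and 0.0187 in edgeR's test). In LN4K1 lung TIMs it differed by 0.33 (adjusted p = 0.107). Gfi1, a transcriptional repressor that takes part in neutrophil development, fell in both LN2E1 groups. It went from 1.84 CPM ± 1.66 in FVB BM IMs to 0.0772 ± 0.0698 and 0.0099 ± 0.022 (adjusted p = 0.00372 and 0.00626 in edgeR's test).

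Genes of classical, Ly6C-high monocytes and of patrolling, Ly6C-low monocytes were set beside the members, since the sort was on Ly6C. Of the Ly6C-high list, 5 of 10 rose and 1 fell in primary tumor TIMs, 3 rose and 3 fell in lymph node TIMs, and 7 rose and 1 fell in LN4K1 lung TIMs (medians 0.35, 0.15 and 0.70), beside 33.3%, 20.2% and 13.9% of all genes called higher and 28.6%, 17.2% and 11.0% called lower. The gene that fell in each group was Ly6c2, which encodes the sorted antigen itself: it fell by 1.30 (SE 0.12, adjusted p = 1.68e-05), 1.17 (SE 0.20, adjusted p = 0.00116) and 0.88 (SE 0.13, adjusted p = 0.000903) in edgeR's test. F13a1 and Hp also fell in lymph node TIMs. Vcan, which encodes versican, rose by 2.37, 2.48 and 3.20, Plac8 by 1.97, 2.60 and 1.83, and Ms4a4c by 1.08, 1.51 and 1.13. Of the Ly6C-low list, 7 of 10 rose and 2 fell in primary tumor TIMs, 9 rose in lymph node TIMs, and 7 rose and 2 fell in LN4K1 lung TIMs (medians 2.75, 3.04 and 1.33), beside the same shares of all genes. The 2 that fell were Spn, which encodes CD43, by 0.88 in primary tumor TIMs and 1.48 in LN4K1 lung TIMs, and Pglyrp1, by 0.51 and 0.95. Ace, which encodes the angiotensin-converting enzyme, rose by 6.18, 7.24 and 1.57, the Fc receptor gene Fcgr4 by 4.84, 5.56 and 3.60, and the enolase gene Eno3 by 3.36, 4.84 and 1.36.

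All 5 markers of the sort (Ptprc, Itgam, Ly6c2, Ly6c1 and Ccr2) were detected in every group, with a summed level of 4454 to 7081 CPM, but not at a like level: the mean of Ly6c2 was 3023 CPM in FVB BM IMs against 1245 in primary tumor and 1337 in lymph node TIMs, while DBA2 BM IMs stood at 2583 CPM and LN4K1 lung TIMs at 1483. Ccr2, the chemokine receptor of these monocytes, rose from 714 to 1133 CPM in primary tumor TIMs and from 1300 to 2664 CPM in LN4K1 lung TIMs (adjusted p = 0.000627 and 0.000269 in edgeR's test). Transcripts used as markers of other cells that can express lysozyme or Chil3 were also counted. The gates on Ly6G and SiglecF are meant to leave out neutrophils and eosinophils, and the purity of the sort was not tested here. Monocytes and their precursors can express some of these genes, and which cells the transcripts came from was not tested. The 6 neutrophil precursor markers summed to 2223 to 2778 CPM in the 6 BM IM libraries and to 18.5 to 254 CPM in TIMs, and the 5 eosinophil markers to 431 to 1138 CPM and at most 69.5 CPM. The 10 markers of mature neutrophils summed to 3377 to 3997 CPM in FVB BM IMs, 1425 to 1998 in primary tumor TIMs, 791 to 1376 in lymph node TIMs, 1876 to 2508 in DBA2 BM IMs and 1782 to 2822 in LN4K1 lung TIMs. The 6 macrophage markers, mostly Apoe, summed to 846 to 2025 CPM in BM IMs and were higher in all TIM groups, at 2291 to 3001 in primary tumor, 2345 to 3749 in lymph node and 3905 to 5553 in LN4K1 lung TIMs. The part of these cells in the lysozyme and Chil3 levels was not tested, and in bulk samples fewer cells of a type and less RNA per cell cannot be told apart.

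The 10 alveolar macrophage markers summed to 195 to 261 CPM in FVB BM IMs, where the eosinophil-associated ribonuclease gene Ear1 led them, and to 44.1 to 63.1 CPM in primary tumor TIMs, 56.2 to 119 CPM in lymph node TIMs, 65.2 to 117 CPM in DBA2 BM IMs and 20.7 to 40.5 CPM in LN4K1 lung TIMs. Marco, Car4, Krt79 and Cidec were at or under 3 counts in every DBA2 BM IM library. Krt79 and Cidec were at or under 3 counts in every FVB BM IM library, and Car4 and Krt79 in every lymph node TIM library. None of the 10 was that low throughout the primary tumor TIMs or throughout the LN4K1 lung TIMs. The part of alveolar macrophages in the Chil3 levels was not tested. The 7 markers of alveolar type II and airway epithelium, which include Sftpc, summed to 197 to 954 CPM in primary tumor TIMs, 9.80 to 140 in lymph node TIMs and 7.63 to 126 in LN4K1 lung TIMs, against at most 3.63 CPM in marrow, and their part was not tested. The 3 B cell and 5 T and NK cell markers summed to at most 2.55 and 22.6 CPM, and the 5 dendritic cell markers to 48.9 to 342 CPM.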

How the data were processed

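RNA was sequenced from 21 libraries in 5 groups, made with a SMARTer ultra-low input and Nextera XT kit that does not mark strand. The authors aligned trimmed reads to the mouse genome (mm10, GRCm38) with BBMap, used SAMtools 1.8 and counted reads per gene with featureCounts 1.5.2. The values used are the raw counts per gene that they deposited, 80772922 to 101043568 per library. The members and lists were chosen with earlier results of these data known.

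Counts were tested with edgeR 4.0.16 (quasi-likelihood, robust, TMM factors, its default filter of 10 counts with a total of 15), each comparison on its own libraries with group as the only term and Benjamini-Hochberg adjustment over all genes. The standard error is the absolute log2 fold change divided by the square root of F. CPM used TMM factors over all 21 libraries, and log2 CPM a prior count of 2. Shares of near-identical copies were compared with exact permutation tests of the mean difference (scipy 1.17.1). With such depth the counting error of the members is small beside the replicate spread. The fits were tested on simulated data before use.

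Named beside the members were every detected gene of the lysozyme and chitinase lists, up to 3 genes of each other list with the largest absolute change among those called in a comparison of TIMs with marrow, the 3 genes closest to each member, and cell type markers. Some other listed genes were also named where the genes with the largest change did not stand for their list. Not every gene that went the other way was named. Older symbols were matched through RefSeq. Chil5 and Chil6 are not analysed here. Sequences are from RefSeq (GRCm38.p6) and GENCODE vM21. Alternatives were other filters, DESeq2 1.42.0 or its size factors, 1 fit of all 5 groups, scaling without the members, adding copies into 1 feature, the replicate number as a block, and leaving out each library. Replicates of a group differed by more than sampling noise in all 36 pairs.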

Additional observations from a re-analysis of the deposited data

Results flagged for a closer look

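Lyz1 in LN4K1 lung TIM replicate 3, at 1505 CPM, stood apart from the other 4 libraries of its group (733 to 893 CPM) by Dixon's test. Of 15 groups of values tested this way, chance flags about 1 in 20. Lyz2 was also highest in that library, at 115166 CPM, while its mature neutrophil markers (1782 CPM) and neutrophil precursor markers (94.1 CPM) were the lowest of the group. Genes with 10 or more counts were also the fewest of the group there, 12015 against 13272 to 13695. The part of this in its lysozyme levels was not tested. Without that library the Lyz1 difference from DBA2 BM IMs was 0.47.

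The change of the lysozymes in primary tumor TIMs differed from that in LN4K1 lung TIMs by edgeR's interaction term, by -1.59 on the log2 scale for Lyz1 and -1.35 for Lyz2. Strain, tumor line, route of injection and tissue cannot be told apart in this difference.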

How the results depend on the processing

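With replicates left out in turn, the log2 differences ranged for Lyz2 from 0.52 to 0.81 in LN4K1 lung TIMs, from -0.76 to -0.53 in lymph node TIMs, from -0.11 to 0.047 between the LN2E1 sites and from -0.37 to -0.16 between the marrows. For Lyz1 they ranged from 0.47 to 0.78 in LN4K1 lung TIMs and from -0.37 to -0.16 between the marrows, and for Chil3 from 1.08 to 2.16 in LN4K1 lung TIMs, -0.92 to -0.36 between the LN2E1 sites and -1.94 to -0.85 between the marrows. The Lyz1 share difference ranged from -0.039 to 0.016 percentage points in LN4K1 lung TIMs and from -0.0083 to 0.040 between the marrows. It ranged from 0.079 to 0.156 between the LN2E1 sites and from 0.087 to 0.122 between all DBA2 and all FVB libraries.

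Other settings moved calls near the threshold. In LN4K1 lung TIMs, Lyz1 was called with a filter of 10 counts in every library (0.69), with all 5 groups in 1 fit (0.76) and with DESeq2 (0.71, or 0.68 shrunken). With the copies added into 1 feature, the summed lysozyme counts, nearly all of them those of Lyz2, were called there too (0.72). Chil3 was called there with a filter of 1 count (1.40) or 10 counts (1.39), with all 5 groups in 1 fit (1.46) and with DESeq2 (1.40, or 1.25 shrunken). In primary tumor TIMs the Chil3 call was lost with all 5 groups in 1 fit (1.01, adjusted p = 0.0642 in edgeR). With the copies added, the difference between the LN2E1 sites for Lyz1 and Lyz2 together was -0.0081. The causes were not tested. The interaction calls of Lyz1 and Lyz2 held in all 24 settings, which include the sum of both genes under each name.

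Same-numbered replicates did not deviate together (17 correlations from -0.1 to 0.057), and the main fits used no pairing. Such correlations cannot show whether same-numbered primary tumor and lymph node libraries came from the same mice, which the labels do not give. With the replicate number as a block, Chil3 in primary tumor TIMs was 0.85 (adjusted p = 0.0666) and Lyz2 in LN4K1 lung TIMs 0.76 (adjusted p = 0.15), both no longer called, and Chil3 between the marrows was called at -1.41 (adjusted p = 0.0214). Over all genes the block lowered the calls from 9025 to 5954 in primary tumor TIMs, from 3389 to 1324 in LN4K1 lung TIMs and from 1578 to 533 between the LN2E1 sites.

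Limits are the unknown treatment of reads that match 2 copies, replicates that the methods call technical, marrow as the sole control, and the small marrow groups.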
